A study of Homo sapiens with 4 samples.

Results

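The 37 genes described here encode the vacuolar ATPase, the membrane proteins of the lysosome, a set of its lumenal enzymes and the MiT/TFE transcription factors that control many of them. They were taken as a list of symbols, matched through Ensembl IDs, out of 26601 genes with a value in all 4 libraries. The list was chosen with earlier results of these data known. All 37 were found, and 35 reached a mean of at least 1 RPKM (read counts scaled to gene length and library depth) over the 4 libraries and were tested among 10771 genes. The V-ATPase is a rotary proton pump: its cytosolic V1 sector hydrolyses ATP and its membrane V0 sector carries protons into the lysosome. The acid lumen keeps hydrolases active, and defects of single hydrolases or of sterol export cause lysosomal storage diseases. TFEB, TFE3 and MITF bind E-box sequences in promoters of lysosome genes and are held in the cytoplasm by mTORC1 signalling when nutrients are plentiful. Monocytes and macrophages are rich in lysosomes.

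The cells were MOLM-13, a human cell line established from acute myeloid leukaemia that carries an MLL-AF9 fusion. Both groups were this line grown in the same serum-supplemented medium. In the GADD45g induced group, 4 days with 1 mg/ml doxycycline (the labelled dose) served to overexpress GADD45G, a small protein that cells make under stress and that is linked to growth arrest and DNA damage, and the untreated control group received none. Each group held 2 libraries, described as biological replicate experiments. The p-values therefore rest on the spread between these libraries, with each gene's estimate of it drawn towards that of all tested genes. No source used here gives the construct, its promoter or whether the line was 1 clone. Doxycycline and the expressed gene differ together between the groups and cannot be told apart.

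GADD45G itself stood at 3236 and 2118 RPKM after induction, against 10.5 and 0.289 RPKM in controls. Depth, recovered from the values, was 18895470 and 15968886 reads in the induced libraries and 18778791 and 15683931 reads in the untreated ones. Of 7 myeloid markers, PTPRC (CD45), SPI1 and CD33 were present at 12.5 to 101 RPKM in every library, whereas MPO stayed at 0.278 RPKM or less and FLT3 had 0.0889 and 0.0451 RPKM after induction against 0.958 and 1.19 RPKM in controls; LYZ and CSF3R fell. The 7 summed to 414 and 380 RPKM after induction, against 1304 and 1016 RPKM in controls, and the 6 other than LYZ to 146 and 138 RPKM after induction, against 131 and 148 RPKM in controls. Fibroblast markers summed to at most 4.75 RPKM and T and B cell markers to at most 4.94 RPKM in any library. The 8 epithelial markers summed to 41.0 RPKM in induced library 1 and 0.271 RPKM in induced library 2, against 41.8 and 0.530 RPKM in controls 1 and 2, so the libraries numbered 1 stand apart from those numbered 2. Among 11 measured monocyte and macrophage markers the summed level was 729 and 677 RPKM after induction, against 123 and 103 RPKM in controls. S100A8 and S100A9 carried that sum: the other 9 markers summed to 27.0 and 24.0 RPKM after induction, against 20.7 and 24.2 RPKM in controls, and overlapped. S100A8, S100A9 and ITGAM rose, MARCO fell, CSF1R and FCGR1A did not pass, and CD68, CD163, FCGR3A and MSR1 were under 1 RPKM in every library. CD14 had 1.37 and 1.49 RPKM after induction, against 0.565 and 0.541 RPKM in controls, and averaged too little to be tested. In bulk RNA a change in the share of cells of one state and a change of RNA per cell cannot be told apart, and the part of either marker set in the results below was not tested.

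After induction genes of the proton pump, the sterol exporter NPC1, the calcium channel MCOLN1, the saposin precursor PSAP, the sialidase NEU1 and the transcription factor TFE3 rose, while the acid ceramidase ASAH1 and the sterol carrier NPC2 fell. Of 10771 tested genes 38.9% changed. Of the 35 tested members 12 rose (34.3%), where 12.2% of all tested genes did, and 2 fell (5.71%), where 26.7% of all tested genes did (limma on log2(RPKM + 1), adjusted p under 0.05). Because the list was chosen with earlier results of these data known, these shares only describe it and their difference was not tested. The median log2 change of the members was 0.38, and that of all tested genes was -0.21. Among the V-ATPase genes 7 of 15 tested members rose and 0 fell, with a median of 0.72; of the other 20 members 5 rose and 2 fell, with a median of -0.06. The groups were separate, with no overlap of values, for 28 of the 35 members (80%), where 70.0% of all tested genes were. Both induced values lay above both controls for 19 members, where 24.1% of all tested genes did so, and below both for 9, where 45.8% did so. Every tested member averaged more than 1 RPKM in each group, the lowest means being 1.74 RPKM after induction and 1.31 RPKM in controls, so none was tested through one group alone. TMM scaling, which moved the median of all tested genes by 0.23, gave 16 members higher and 2 lower, beside 18.3% and 18.8% of all genes. Setting the median change to 0 gave 15 higher and 2 lower, beside 17.4% and 19.0% of all genes, and voom on recovered reads gave 16 higher and 4 lower, beside 14.2% and 29.2%. Without induced library 1 the members called were 7 higher and 1 lower, and without control 2 they were 7 higher and 3 lower. Over all tested genes 7.41% were called higher and 17.8% lower without induced library 1, and 10.5% and 22.7% without control 2.

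**Figure D1:**
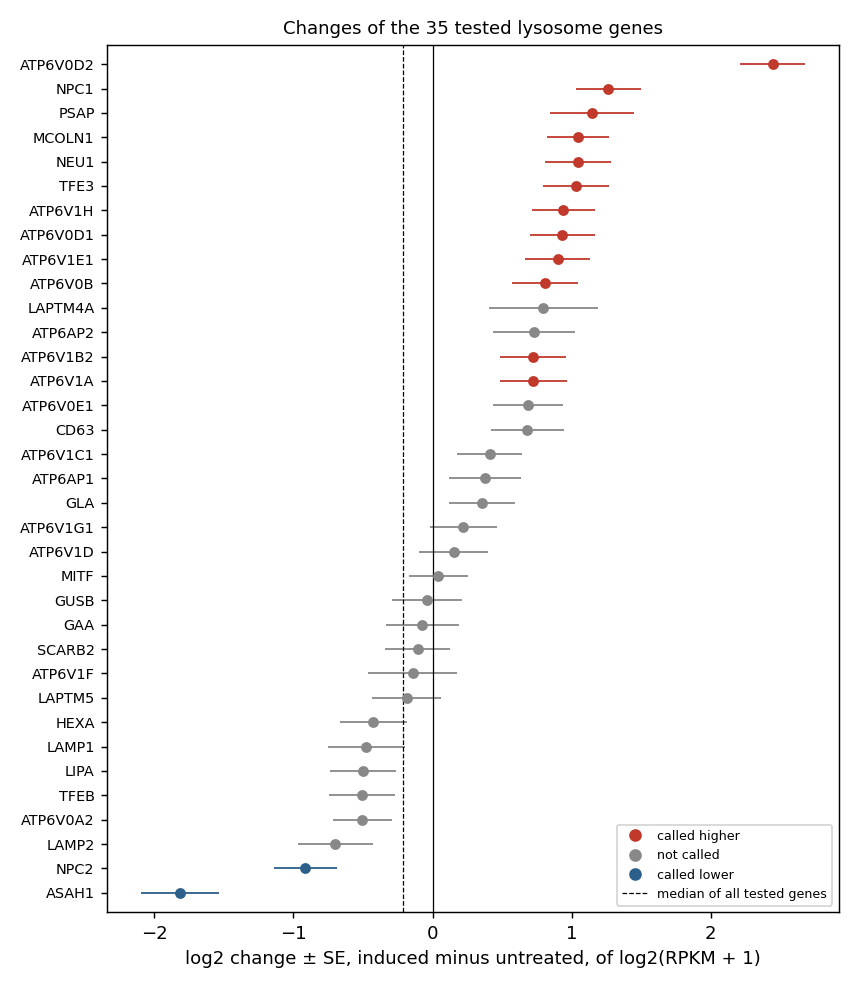
Log2 change of each of the 35 tested genes (induced minus untreated, on the log2(RPKM + 1) scale, horizontal axis) with its standard error. Red points are called higher, blue lower and grey neither, and the dashed line is the median of all tested genes at -0.21. ATP6V0D2 at 2.45 and ASAH1 at -1.82 stand at the ends.

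Of the 3 MiT/TFE factors, TFE3 rose and the others did not pass the test. TFE3 (ENSG00000068323) stood at 41.9 and 37.3 RPKM after induction, against 16.8 and 21.1 RPKM in controls. Both induced values lay above both controls, a 2.09-fold difference of means (log2 change 1.03 ± 0.24 SE; limma adjusted p = 0.00568), and the call held when any one library was left out. TFEB, the best-studied regulator of lysosome biogenesis, stood at 6.51 and 4.79 RPKM after induction, against 7.32 and 9.53 RPKM in controls (log2 change -0.50; adjusted p = 0.116). Its groups did not overlap, but the difference did not pass. MITF, known best from melanocytes and osteoclasts, stood at 4.27 and 4.61 RPKM after induction against 4.56 and 4.03 RPKM in controls, and its groups overlapped. TFEC, the remaining family member, added after its values were seen, stood at 11.8 and 12.2 RPKM after induction, against 23.9 and 13.1 RPKM in controls, without passing (adjusted p = 0.164). Of the RPKM summed over these 4 paralogs, TFE3 made up 65.0% and 63.3% after induction, against 32.0% and 44.2% in controls.

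The factors of this family bind the E-box core CACGTG, and the longer palindrome TCACGTGA is the centre of the CLEAR element, the motif through which TFEB is known to act on lysosome genes. RefSeq promoter windows (GRCh38.p14, 250 bases before to 50 after a start, 300 bases) were matched by symbol for 27 of the 37 members, in 43 windows; ATP6V1A, ATP6V1B2, ATP6V1C1, ATP6V1H, ATP6V0D2, ATP6V0E1, LAMP2, PSAP, HEXA and ASAH1 were not matched. Both motifs are their own reverse complement, so a match reads the same on both strands, and each TCACGTGA also holds the shorter motif. The core was found in the windows of 8 members (29.6% of those matched), against 8.77% of all genes with a window and 13.1% of those that were also tested. Counted per window, it was in 18.6% of the members' windows, 7.26% of all windows and 9.71% of the windows of tested genes. TCACGTGA was found in 5 members (18.5%), against 1.18% of all genes with a window and 2.54% of the tested ones. Per window these shares were 11.6% for the members, 0.980% for all windows and 1.88% for the windows of tested genes. Because the motif is known from lysosome genes, its share among the members is not a result of these libraries. The 4 windows with the core among the members that rose, and that of LAMP1, which held the most matches, are shown with CACGTG in capitals.

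MCOLN1, chr19:7522374-7522673, plus strand: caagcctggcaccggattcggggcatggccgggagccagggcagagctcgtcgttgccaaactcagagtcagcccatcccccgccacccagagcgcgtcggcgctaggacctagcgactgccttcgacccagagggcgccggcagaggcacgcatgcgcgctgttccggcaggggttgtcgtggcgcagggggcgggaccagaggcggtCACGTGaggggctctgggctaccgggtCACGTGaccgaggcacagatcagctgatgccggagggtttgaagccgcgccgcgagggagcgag
NEU1, chr6:31862772-31863071, minus strand: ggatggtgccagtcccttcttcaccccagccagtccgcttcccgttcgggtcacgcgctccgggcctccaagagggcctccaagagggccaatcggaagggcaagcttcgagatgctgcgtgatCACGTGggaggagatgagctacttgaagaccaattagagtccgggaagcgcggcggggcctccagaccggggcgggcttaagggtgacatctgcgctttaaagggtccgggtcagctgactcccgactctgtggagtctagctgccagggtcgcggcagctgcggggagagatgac
ATP6V0D1, chr16:67481108-67481407, minus strand: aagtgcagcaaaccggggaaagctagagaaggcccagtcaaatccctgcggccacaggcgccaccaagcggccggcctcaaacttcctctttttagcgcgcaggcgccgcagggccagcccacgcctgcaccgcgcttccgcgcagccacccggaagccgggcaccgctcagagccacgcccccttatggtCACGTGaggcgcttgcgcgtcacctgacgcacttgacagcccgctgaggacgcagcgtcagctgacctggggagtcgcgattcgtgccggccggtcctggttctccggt
ATP6V0B, chr1:43974710-43975009, plus strand: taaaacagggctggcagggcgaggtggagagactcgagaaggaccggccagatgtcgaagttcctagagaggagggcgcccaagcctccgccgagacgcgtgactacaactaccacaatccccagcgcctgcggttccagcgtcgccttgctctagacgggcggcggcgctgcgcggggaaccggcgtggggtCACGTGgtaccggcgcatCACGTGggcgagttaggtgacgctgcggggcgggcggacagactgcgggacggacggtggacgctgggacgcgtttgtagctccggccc
LAMP1, chr13:113296989-113297288, plus strand: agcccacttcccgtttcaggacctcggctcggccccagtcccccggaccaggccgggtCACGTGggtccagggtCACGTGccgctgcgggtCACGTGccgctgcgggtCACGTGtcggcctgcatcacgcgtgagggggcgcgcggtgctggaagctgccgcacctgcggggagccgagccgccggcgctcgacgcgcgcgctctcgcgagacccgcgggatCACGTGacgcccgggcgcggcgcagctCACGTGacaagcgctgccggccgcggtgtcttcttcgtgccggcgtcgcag

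MCOLN1 had 2 matches, beginning 41 and 14 bases before the start, both within the longer palindrome. ATP6V0D1 had 1, beginning 59 bases before the start, also within the longer palindrome. ATP6V0B had 2 (57 and 39 bases before) and NEU1 had 1 (126 bases before), each of the core alone. LAMP1 had 6, of which 2 lay in the longer palindrome, and GAA had 2, both in the longer palindrome. CD63 had the core alone in 1 of its 8 windows, and ATP6V1G1 had 1 longer palindrome. A match therefore stood in 4 of the 7 members that rose and had a window, in 4 of the 17 that did not pass and in 0 of 1 that fell. For the longer palindrome these counts were 2 of 7, 3 of 17 and 0 of 1. ATP6V1A, ATP6V1B2, ATP6V1H, ATP6V0D2 and PSAP rose but had no window. The motif shares of all tested genes were not split by call, so these counts only describe the members and were not tested. Members with matches ranged in log2 change from 1.05 in MCOLN1 to -0.48 in LAMP1. NPC1, TFE3 and ATP6V1E1 rose and had no CACGTG in these windows, which says nothing of sites elsewhere.

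**Figure D2:**
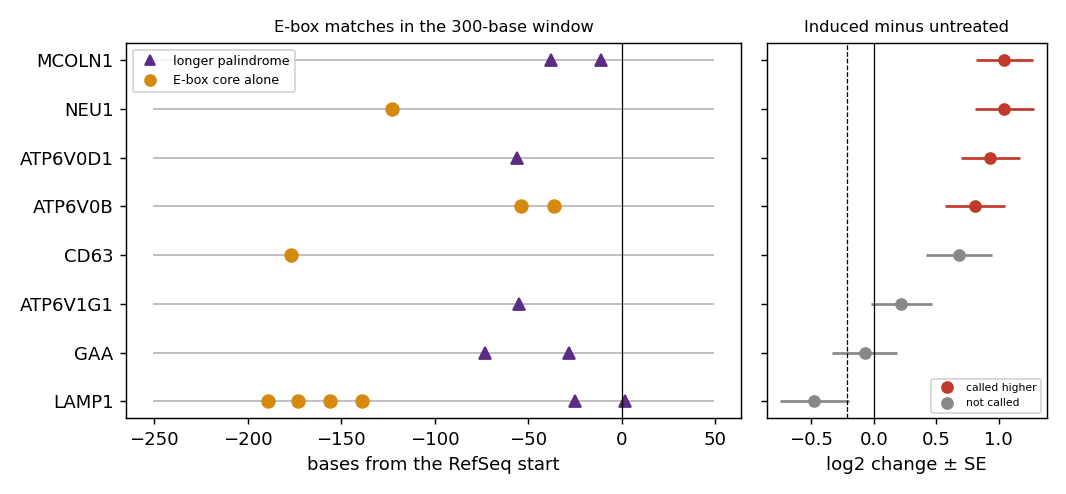
Positions of E-box matches relative to the RefSeq start (bases, left) in the 8 members that have one, triangles for matches within the longer palindrome and circles for the core alone, with each gene's log2 change and standard error (right). The 4 members called higher and the 4 not called both include genes with the longer palindrome.

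In the V1 sector 4 of 8 subunits rose (50%) and 0 fell, where 12.2% and 26.7% of all tested genes did. ATP6V1H, the regulatory subunit H that bridges the sectors, had 31.0 and 33.8 RPKM after induction, against 17.6 and 15.3 RPKM in controls. Its means differed 1.97-fold (log2 change 0.94 ± 0.23 SE; limma adjusted p = 0.00754), and the call was lost without induced library 2 (0.0585). ATP6V1E1, a subunit of the peripheral stalk, had 49.9 and 59.2 RPKM after induction, against 27.5 and 29.8 RPKM in controls (1.90-fold; adjusted p = 0.0113, lost without control 1 or without induced library 2, up to 0.0879). The catalytic subunit ATP6V1A had 59.5 and 71.7 RPKM after induction, against 41.3 and 37.1 RPKM in controls. Its partner in the ATPase ring, ATP6V1B2, had 68.1 and 62.7 RPKM after induction, against 42.6 and 36.0 RPKM in controls. For both ring subunits all induced values lay above all control values, by 1.67-fold and 1.66-fold, and both calls (adjusted p = 0.0341 and 0.0328) were lost whichever library was left out.

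The other V1 subunits did not pass. ATP6V1C1 stood at 29.7 and 34.9 RPKM after induction, against 25.7 and 22.3 RPKM in controls, without overlap (limma adjusted p = 0.188). It passed in 1 of 13 alternatives that kept all libraries, TMM scaling, with 0.0430. ATP6V1G1, a stalk subunit, stood at 72.3 and 68.1 RPKM after induction against 66.5 and 54.3 RPKM in controls, again without overlap but with a log2 change of 0.22. ATP6V1D, part of the central rotor, stood at 15.2 and 22.1 RPKM after induction against 17.9 and 15.1 RPKM in controls, and its groups overlapped. ATP6V1F, another rotor subunit and the most abundant of the sector, stood at 326 and 173 RPKM after induction, against 269 and 257 RPKM in controls. The controls of ATP6V1F lay close together and between the induced values.

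In the V0 sector 3 of 5 tested genes rose (60%) and 0 fell, where 12.2% and 26.7% of all tested genes did. ATP6V0D2 (ENSG00000147614), the d2 form of the subunit that joins rotor and proteolipid ring, known from osteoclasts and macrophages, stood at 11 and 11.9 RPKM after induction, against 1.68 and 0.932 RPKM in controls. These values came from 625 and 570 reads after induction, against 95 and 44 reads in controls. The means differed 8.74-fold (log2 change 2.45 ± 0.23 SE; limma adjusted p = 3.22e-05), the largest change among the 35 members, and the call held with each library left out. Its widely expressed paralog ATP6V0D1 rose as well, with 23.2 and 17 RPKM after induction against 9.94 and 9.88 RPKM in controls (2.03-fold; adjusted p = 0.00943, lost without induced library 1 or without either control, up to 0.110). Of the summed RPKM of both d paralogs, ATP6V0D2 made up 32.2% and 41.1% after induction, against 14.5% and 8.62% in controls. ATP6V0B, a proteolipid of the proton-carrying ring, had 63.3 and 50.6 RPKM after induction against 32.3 and 31.4 RPKM in controls (1.79-fold; adjusted p = 0.0203, up to 0.144 and lost without induced library 1 or without either control).

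ATP6V0E1, a small membrane subunit, just missed the threshold at an adjusted p of 0.0509. It had 119 and 93.3 RPKM after induction, against 68.8 and 61.9 RPKM in controls, with no overlap, and passed in 9 of 13 alternatives that kept all libraries. ATP6V0A2, the a2 form of the large proton-channel subunit, had 1.78 and 1.69 RPKM after induction against 2.99 and 2.79 RPKM in controls (log2 change -0.51; adjusted p = 0.0822), and passed in 1 of 12 alternatives that kept all libraries, voom on recovered reads (0.0303). ATP6V0A1 and ATP6V0C were not tested, being under 1 RPKM on average. ATP6V0A1, the a1 form, had 29 and 17 reads in the induced libraries (0.140 and 0.0971 RPKM), against 23 and 9 reads in the untreated ones (0.112 and 0.0523 RPKM). ATP6V0C, the main proteolipid of the ring and a gene that cells generally need, had 10 and 8 reads after induction, against 2 and 7 reads in controls. Its levels were 0.353 and 0.334 RPKM after induction, with exact Poisson intervals of 95% from 0.169 to 0.650 and from 0.144 to 0.659 RPKM, against 0.0711 (0.00861 to 0.257) and 0.298 (0.120 to 0.614) RPKM in controls. In GENCODE release 29 the genes AC093525.1 and AC093525.2 share 218 and 862 exon bases with ATP6V0C, and both are listed at 0 in the 3 libraries whose files hold them, so how reads at this locus were assigned is not known and these values are not read as its level.

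The accessory subunits did not pass. ATP6AP1, which helps assemble and target the pump, had 115 and 85.9 RPKM after induction, against 81.6 and 71.1 RPKM in controls (adjusted p = 0.269). ATP6AP2, the (pro)renin receptor, had 151 and 133 RPKM after induction against 111 and 65.2 RPKM in controls (adjusted p = 0.0708). Both pairs of groups did not overlap, and the controls of ATP6AP2 differed from each other more than its induced values did. ATP6AP2 passed in 8 of 13 alternatives that kept all libraries, and without control 1 (0.0302).

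**Figure D3:**
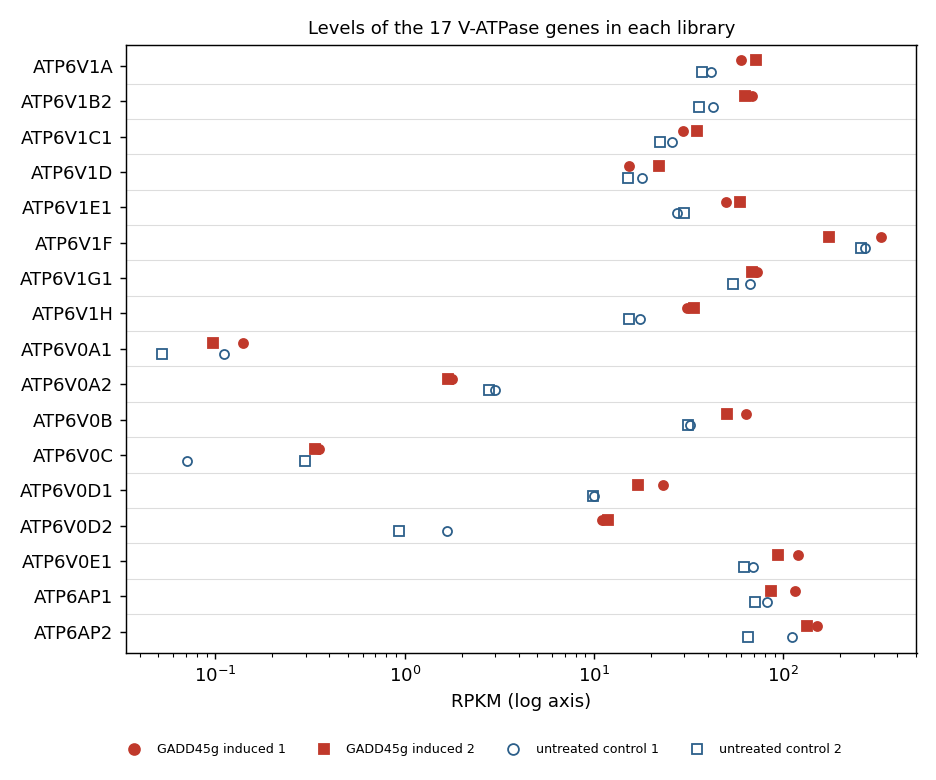
RPKM of the 17 V-ATPase genes in each library (log axis), induced values in red above untreated values in blue, circles for libraries numbered 1 and squares for those numbered 2. ATP6V0D2 shows the widest gap between groups, while ATP6V0A1 and ATP6V0C lie under 1 RPKM in every library.

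Among the 8 listed lysosome membrane proteins 2 rose (25%) and 0 fell, where 12.2% and 26.7% of all tested genes did. NPC1, which exports cholesterol from the lysosome and whose loss causes Niemann-Pick disease type C, stood at 46.5 and 48.6 RPKM after induction, against 17.5 and 21.1 RPKM in controls. The means differed 2.47-fold (log2 change 1.26 ± 0.23 SE; limma adjusted p = 0.00161). MCOLN1, the lysosomal calcium channel TRPML1, stood at 6.50 and 6.16 RPKM after induction, against 2.09 and 3.08 RPKM in controls (2.45-fold; adjusted p = 0.00411). Both calls held with each library left out. CD63, a tetraspanin of late endosomes and exosomes, had 131 and 97.6 RPKM after induction against 77.5 and 63.5 RPKM in controls without overlap (adjusted p = 0.0608), and passed in 9 of 13 alternatives that kept all libraries.

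The major glycoproteins of the lysosome membrane were not among the genes that rose. LAMP2, which also serves chaperone-mediated autophagy, stood at 70.8 RPKM in both induced libraries, against 142 and 94.1 RPKM in controls (log2 change -0.70; adjusted p = 0.0616). It passed in 5 of 13 alternatives that kept all libraries and without control 2 (0.0330). LAMP1 stood at 55.4 and 35.9 RPKM after induction, against 70.2 and 55.4 RPKM in controls (adjusted p = 0.199). LAPTM5, a membrane protein of blood cells, was at 208 RPKM in both induced libraries, against 241 and 232 RPKM in controls. SCARB2 (LIMP-2), the receptor that carries glucocerebrosidase to the lysosome, had 17.1 and 19.1 RPKM after induction against 22 and 17.5 RPKM in controls, with overlap. LAPTM4A stood at 125 and 61.2 RPKM after induction, against 72.6 and 34.2 RPKM in controls. The LAPTM4A groups overlapped; in both the library numbered 1 held the higher value. The difference did not pass (adjusted p = 0.135), but did in 3 of 13 alternatives that kept all libraries and without induced library 2 (0.0388).

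The lumenal genes held both of the decreases. ASAH1, the acid ceramidase that turns ceramide into sphingosine, stood at 96.0 and 71.7 RPKM after induction, against 351 and 248 RPKM in controls. It was 3.57-fold lower after induction (log2 change -1.82 ± 0.28 SE; limma adjusted p = 0.000598), with the call held in each omission of 1 library. NPC2, the soluble protein that hands cholesterol to NPC1, stood at 28.6 and 30.2 RPKM after induction, against 57.1 and 55.4 RPKM in controls (1.91-fold lower; adjusted p = 0.00914, and 0.0565 without induced library 1). NPC1 and NPC2, which act in one pathway of sterol export, thus had log2 changes of 1.26 and -0.91.

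PSAP and NEU1 rose. PSAP, the precursor of the saposins that assist sphingolipid hydrolases, was the most abundant member, with 930 and 609 RPKM after induction against 381 and 302 RPKM in controls. Its means differed 2.25-fold (adjusted p = 0.0117), and the call was lost without induced library 1 or without control 2 (up to 0.110). NEU1, the lysosomal sialidase, stood at 55.3 and 50.2 RPKM after induction, against 22.7 and 27.6 RPKM in controls (2.10-fold; log2 change 1.04 ± 0.24 SE; adjusted p = 0.00524), and its call held with each library left out. PSAP and ASAH1 serve the same sphingolipid breakdown, saposin D being known as an activator of acid ceramidase, and their log2 changes were 1.15 and -1.82.

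The 5 other hydrolases did not pass. GLA (alpha-galactosidase A) stood at 99.3 and 107 RPKM after induction, against 81.0 and 80.2 RPKM in controls (log2 change 0.35). LIPA, the acid lipase of cholesteryl esters, stood at 14.9 and 14.6 RPKM after induction, against 25 and 18.1 RPKM in controls (log2 change -0.50; adjusted p = 0.124). HEXA, the alpha subunit of beta-hexosaminidase, stood at 14.6 and 18.8 RPKM after induction against 20.1 and 25.4 RPKM in controls (-0.42). These 3 had groups that did not overlap. GAA, the acid alpha-glucosidase that breaks down glycogen, had 33.3 and 23.0 RPKM after induction against 25.9 and 32.9 RPKM in controls, and GUSB (beta-glucuronidase) had 84.1 and 62.6 RPKM after induction against 72.0 and 77.4 RPKM in controls. Both overlapped, with log2 changes of -0.07 and -0.04 that turned positive after TMM, upper quartile or quantile scaling and after a shift of the median change to 0.

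**Figure D4:**
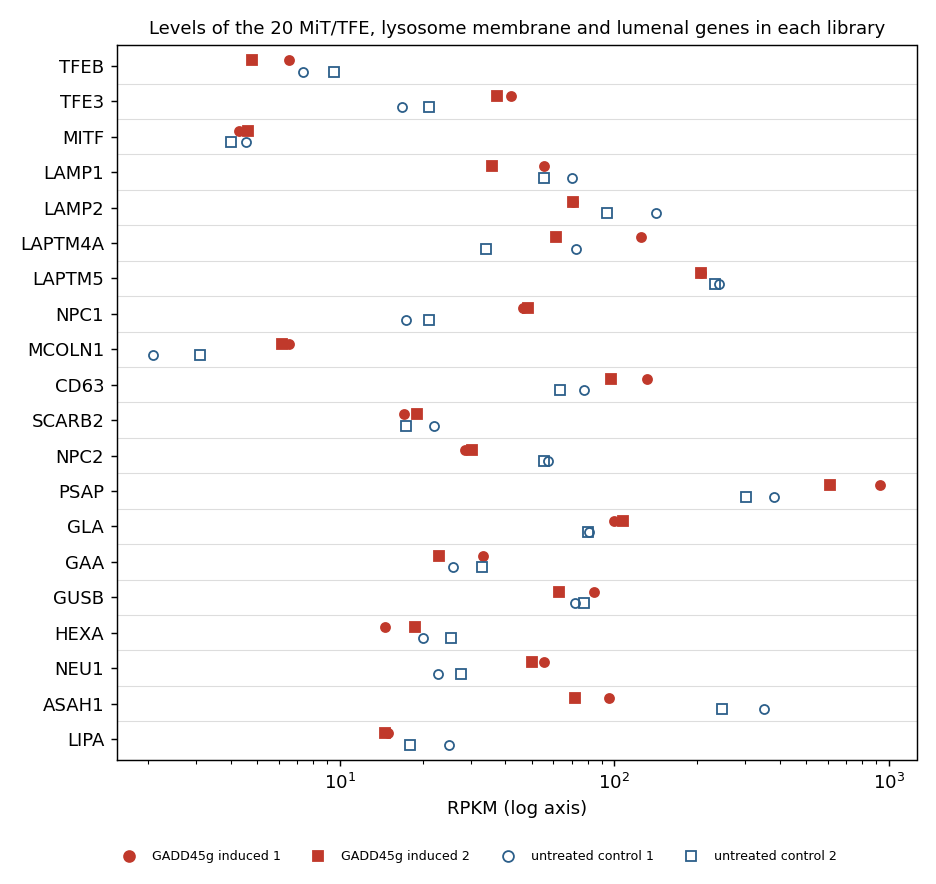
RPKM of the MiT/TFE factors and of the lysosome membrane and lumenal genes in each library (log axis), induced values in red above untreated values in blue, circles for libraries numbered 1 and squares for those numbered 2. TFE3, NPC1, MCOLN1, PSAP and NEU1 lie to the right in the induced libraries and NPC2 and ASAH1 to the left.

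Some members share exon bases with other genes in GENCODE release 29, and since no source used here gives the strandedness, their reads cannot be told apart there. RMC1, on the opposite strand, shares 604 exon bases with NPC1, and stood at 21.1 and 25.6 RPKM after induction against 10.7 and 12 RPKM in controls. KCP shares 187 bases with ATP6V1F, and stood at 22.4 and 9.51 RPKM after induction against 22.6 and 21.9 RPKM in controls. EIF2S1 shares 269 bases with ATP6V1D, and stood at 15.3 and 16.5 RPKM after induction against 29.8 and 21.4 RPKM in controls. Some opposite-strand models have values here in 3 libraries, induced library 1 being the exception. AC023194.3, which shares 502 bases with ATP6V0D2, had 20.3 RPKM in induced library 2, against 2.12 and 1.14 RPKM in controls. AC108693.2, which shares 109 bases with ATP6V1A, had 57.7 RPKM there, against 26.0 and 31.4 RPKM in controls, and AC009690.2 shares 1273 bases with HEXA. On the same strand, AC008878.2 shares 169 bases with MCOLN1 and is listed at 0 in the 3 libraries. AC009690.1 shares 617 bases with HEXA, also on its strand. How reads in these shared bases were assigned is not known. The part of these overlaps in the members' values was not tested.

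The further lysosome genes, 112 in 6 lists, were called at shares near those of all tested genes. Of 95 tested, 14 rose (14.7%) and 21 fell (22.1%), where 12.2% and 26.7% of all tested genes did, with a median log2 change of -0.14. After TMM scaling the counts were 19 higher and 14 lower; without induced library 2 they were 8 and 8, without induced library 1 they were 8 and 11, and without control 1 they were 9 and 14. Over all tested genes the shares called higher and lower were 7.72% and 16.4% without induced library 2, 7.41% and 17.8% without induced library 1, and 8.93% and 20.7% without control 1. Among the other V-ATPase subunits and paralogs 1 of 6 tested rose and 3 fell. TCIRG1, the a3 subunit known from osteoclasts and lysosomes, rose to 73.2 and 53.8 RPKM after induction, against 16.5 and 23.9 RPKM in controls (3.15-fold; limma adjusted p = 0.000919). It made up 97.4% and 96.7% of the RPKM summed over the 4 a-subunit paralogs after induction, against 84.2% and 89.4% in controls. ATP6V0E2 fell, with 2.94 and 2.52 RPKM after induction against 8.50 and 8.63 RPKM in controls, as did ATP6V1C2, with 13.5 and 7.03 RPKM after induction against 43.6 and 22.3 RPKM in controls. ATP6V1C1 thus made up 68.8% and 83.3% of the summed RPKM of both C paralogs after induction, against 37.1% and 50% in controls.

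Of 9 tested assembly factors and regulators of the pump, 0 rose and 3 fell (33.3%), where 12.2% and 26.7% of all tested genes did. VMA21, an assembly chaperone of the V0 sector, had 6.23 and 7.27 RPKM after induction against 20.8 and 15.0 RPKM in controls (adjusted p = 0.00186). WDR7, a partner of the pump, had a log2 change of -0.89, and CCDC115, an assembly factor, of -0.85. Of 28 other hydrolases and cofactors tested, 2 rose (7.14%) and 9 fell (32.1%), near the shares of all tested genes. GM2A, the activator that presents ganglioside to hexosaminidase A, fell to 32.2 and 31.6 RPKM after induction, against 94.1 and 82.4 RPKM in controls. RNASET2, the lysosomal ribonuclease, had a log2 change of -1.11, and ARSA (arylsulfatase A) rose with a log2 change of 1.14.

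Of 23 other tested membrane proteins and transporters 6 rose (26.1%) and 3 fell (13%), where 12.2% and 26.7% of all tested genes did. TMEM192 had 1.55 and 1.71 RPKM after induction against 7.61 and 6.04 RPKM in controls, while SIDT2, a nucleic acid transporter, was 2.76-fold higher. Among 17 tested MiT/TFE partners and nutrient-sensing genes 2 rose and 2 fell (11.8% each). GPNMB, a glycoprotein known as an MITF target in melanocytes, stood at 62.3 and 60.5 RPKM after induction, against 266 and 268 RPKM in controls. RRAGA, a Rag GTPase that recruits mTORC1 to the lysosome, was 2.70-fold higher and FNIP2, a folliculin partner, 1.69-fold higher. Of 12 tested genes of mannose 6-phosphate sorting, which delivers hydrolases to the lysosome, 3 rose (25%) and 1 fell (8.33%). The receptor IGF2R had 149 and 160 RPKM after induction against 59.5 and 88.6 RPKM in controls, the sorting receptor SORT1 was 4.04-fold higher and the adaptor GGA1 2.05-fold higher.

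**Figure D5:**
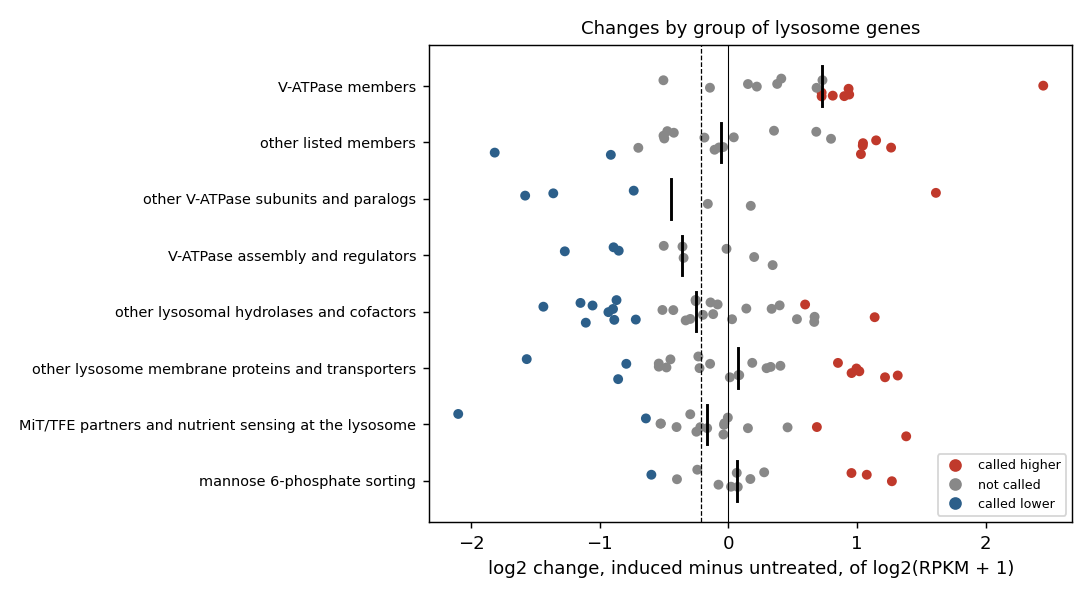
Log2 change of each tested gene (horizontal axis, induced minus untreated, log2(RPKM + 1) scale) in the listed members and in 6 related lists, with a black bar at each median and a dashed line at the median of all tested genes (-0.21). The V-ATPase members have their median at 0.72 and the related genes together at -0.14.

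The epithelial signal sets both libraries numbered 1 apart to a similar degree. In the libraries numbered 2 the 8 epithelial markers summed to under 1 RPKM. Log2 differences within these libraries follow for the 6 members whose calls held with each library left out. They were 2.73 for ATP6V0D2 (2.16 in the libraries numbered 1), 1.17 for NPC1 (1.36) and 0.79 for TFE3 (1.27). For NEU1 the difference was 0.84 (1.25), for MCOLN1 0.81 (1.28) and for ASAH1 -1.77 (-1.86). The sign of these differences was fixed by the absence of overlap between the groups, so their size alone is given, without a test.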

How the data were processed

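RNA-seq was measured in 4 libraries, 2 per group, grouped by the treatment label; titles with no suffix are numbered 1 and titles with one are numbered 2. The authors deposited 1 RPKM value per Ensembl gene ID, per the file headers. TopHat, Cuffnorm, Cuffdiff and the hg19 build are named, with no version or role, per the submitters' processing notes. The file of induced library 1, as used here, ends after 27332 of 57820 IDs, and only IDs in all 4 files were tested. IDs were paired with symbols through a table of gene names (51996 paired) and values of IDs with the same symbol were added. A filter kept genes averaging 1 RPKM or more, and log2(RPKM + 1), which understates changes of low genes, was compared with limma (version 3.58.1, R 4.3.3; lmFit, eBayes with trend), two-sided, with Benjamini-Hochberg adjustment over 10771 genes and a threshold of 0.05. Residual and prior degrees of freedom were 2 and 8.72. The fit was tested on simulated data.

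In each library 100% of low values (up to 20 reads) were whole multiples of 1 read within 0.01 reads for gene models identical in GENCODE release 29, which gives the depths. Reads and lengths were recovered for 99.97% of 10818 IDs (tolerance 0.005 reads). For a 1 kb gene each read adds 0.0529 to 0.0638 RPKM, and 0 reads allow up to 3 reads. Poisson intervals cover counting error only. Levels and folds of means were computed with pandas 2.3.3 and numpy 2.4.6. Symbols not found directly were looked up among RefSeq synonyms. Promoter windows are from RefSeq, GRCh38.p14, another build than the files'. Named genes are all members, the 3 genes of each related list with the smallest adjusted p, of which 1 is not reported here, and GADD45G. The members and lists were chosen with earlier results of these data known. Alternatives were other pseudocounts, filters, scalings and priors, a replicate block, 1 library left out, voom on recovered reads and the highest row per symbol, with comparisons within libraries of one number added after seeing the data.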

Additional observations from a re-analysis of the deposited data

How the results depend on the processing

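All 14 member calls kept their direction in the 17 alternatives, except that MCOLN1 was not tested with the filter of 5 RPKM. Leaving out 1 library, which leaves 1 group with a lone library assumed to vary like the others, kept 6 of them throughout (ATP6V0D2, NPC1, MCOLN1, TFE3, NEU1 and ASAH1), with 7 to 9 members called higher, 1 to 3 lower, 2597 to 3582 genes in all, and 8 to 13 higher and 8 to 18 lower among the related genes. Of the other alternatives, 8 of the 14 calls held in all, and the others failed with no filter on low values alone. That setting adjusts over more genes and also fits the prior to them. It called 2462 genes, 6 members higher and 2 lower, and 8 related genes higher and 12 lower. The 2462 were not split by direction, so no share of all genes stands beside these counts. Voom on the recovered reads called 4 members lower. All tested genes split into 1314 higher and 2871 lower, and into 1967 and 2022 after TMM scaling.

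Some members that did not pass changed sign with the scaling. Setting the median change to 0 takes the median of -0.21 off every gene's change, so any change between -0.21 and 0 turns positive. TMM scaling moved the median of all tested genes by 0.23. For the other scalings the cause was not tested. After TMM scaling the log2 changes were 0.13 for ATP6V1F, 0.083 for LAPTM5, 0.19 for GAA, 0.23 for GUSB and 0.15 for SCARB2. After upper quartile scaling they were 0.034 for ATP6V1F, 0.10 for GAA, 0.13 for GUSB and 0.062 for SCARB2. After quantile normalization they were 0.080 for GAA, 0.019 for GUSB and 0.061 for SCARB2. With the median change set to 0 they were 0.068 for ATP6V1F, 0.025 for LAPTM5, 0.14 for GAA, 0.17 for GUSB and 0.10 for SCARB2. With 1 library left out the changes ran from -0.10 to 0.41 for ATP6V1D, -0.60 to 0.31 for ATP6V1F, -0.33 to 0.19 for GAA, -0.25 to 0.17 for GUSB, -0.031 to 0.11 for MITF and -0.27 to 0.050 for SCARB2.

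Libraries share a replicate number in the titles, with no statement that a number marks a pair. Across genes, deviations of same-numbered libraries from their group means had r = 0.35. With the replicate block the calls were 4987 of the 10771 tested genes, 16 members higher and 3 lower, and 16 related genes higher and 22 lower. The 4987 were not split by direction, so no share of all genes stands beside these member counts. The members added by the block were ATP6V0E1 (limma adjusted p = 0.0166), ATP6AP2 (0.00924), LAMP2 (0.0138), LAPTM4A (0.00501) and CD63 (0.0167). With 2 libraries a group, the lowest members, ATP6V0A1 and ATP6V0C, rest on at most 29 reads in any library. How reads at ATP6V0C were assigned is not known.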
